A study of Mus musculus with 8 samples.

Results

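Peaks of N6-methyladenosine (m6A) that run across the stop codon, from the coding sequence (CDS) into the 3′ untranslated region (UTR), were examined in C2C12 myoblasts. C2C12 is an immortalized line of mouse myoblasts that divides in serum-rich medium and fuses into myotubes once serum is withdrawn. MeRIP-seq, in which fragmented poly(A) RNA is precipitated with an antibody against m6A and compared with the unprecipitated input, had been done on proliferating cells at 50% confluence, in growth medium (GM) that held 10% fetal bovine serum, and on cells that had passed 90% confluence and then spent 3 days in differentiation medium with 2% horse serum (3d DM). Both states are the same unmodified line, grown on collagen, and each has 2 immunoprecipitated and 2 input libraries. The labels do not say whether replicates came from separate cultures, so the spread between them may be technical.

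A peak was taken as stop-spanning when the authors' region label named both the CDS and the 3′ UTR and did not name the 5′ UTR. In the 4 peak lists, 1 for each immunoprecipitated library, 23790 of 112768 lines met this rule. They gave 22086 of 105669 distinct positions and fell on 4716 of the 9153 genes that had any peak. The rule used only the label, so fold, abundance and sequence were free to vary. In each library, 4445 to 6262 member lines had a transcript that could be placed on the GENCODE annotation of mm10, and in 99.4% to 99.7% of these the annotated stop codon lay inside the peak.

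m6A is written on nascent mRNA by a complex with METTL3 as its catalytic subunit, at adenosines in the sequence DRACH (D is A, G or T, R is A or G, and H is A, C or T), and most DRACH sequences carry no mark. FTO and ALKBH5 can remove the mark, and proteins with a YTH domain bind it and lead the mRNA to decay, splicing or translation. The mark is best known for its crowding around stop codons and in long exons. In myoblasts the writer complex is needed for a normal passage between proliferation and differentiation.

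Sequences of stop-spanning peaks with a high or variable fold are shown first, because they let the motif be seen against the stop codon. Each is the 25-base stretch of mRNA around the DRACH nearest to the stop codon in the peak, read 5′ to 3′ from GENCODE transcripts on mm10, with the DRACH in capitals. The first 6 belong to genes with the highest mean fold over the 4 lists among those with a mean RNA-seq value of at least 100.
Mrpl19: cttgatcctgGGACTagtgaatggc (chr6:81961921-81961945, minus strand)
Dnase2a: agaggggagcTGACTgaagcccatc (chr8:84911020-84911044, plus strand)
Smcr8: tcagccactgTGACCaagacctgtg (chr11:60784213-60784237, plus strand)
Zfp57: aagaagattcGGACTgatttctgac (chr17:37010505-37010529, plus strand)
Pde4b: ttgcaacagaAGACAagtctccgat (chr4:102605305-102605329, plus strand)
Crtc3: cgtttcgagcTGACCggctatgagc (chr7:80589741-80589765, minus strand)

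In Dnase2a the stop codon TGA is itself the first part of the DRACH, so that the A of the motif is the last base of the stop codon. In Mrpl19 the A lies 10 bases and in Smcr8 20 bases after the first base of the stop codon, in the 3′ UTR. In Zfp57, Crtc3 and Pde4b it lies 2, 8 and 20 bases before the first base of the stop codon, in the CDS. All 6 stretches lie within the last exon.

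The next 6 belong to genes whose fold gave the smallest p for a difference between GM and 3d DM. The first 2 had the higher fold in GM and the last 4 in 3d DM.
Itga3: acagaaaggcTGACCgacgactact (chr11:95046482-95046506, minus strand)
Tenm3: cggcaagaggTAACCcccgggccac (chr8:48228434-48228458, minus strand)
Mrpl40: aaaagataagAGACTgaaaactgct (chr16:18872322-18872346, minus strand)
Eva1c: ccacttctacTGACAacagaggcat (chr16:90904468-90904492, plus strand)
Pigf: ttacatacaaGAACAattaagagga (chr17:86997449-86997473, minus strand)
Xylt2: tcaggtagcaGGACCccagccagca (chr11:94664570-94664594, minus strand)

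Tenm3 and Eva1c again have the stop codon inside the motif. Itga3 is the one gene of these 12 whose stop codon lies before the last exon.

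The last 8 are from gene lists described later and were taken from those whose stop codon lies in a DRACH. They show both forms this can take, TGAC and TAAC.
Mef2d: ttgggtactgTAACAttgcccttct (chr3:88168341-88168365, plus strand)
Tnni2: gtctgagtccTAACTgcccacttcc (chr7:142444298-142444322, plus strand)
Ccnb1: gacaaaggcaTAACTccaatagact (chr13:100779666-100779690, minus strand)
Ythdf3: aaacaagcaaTAACCaccgtgtgga (chr3:16213966-16213990, plus strand)
Chd7: aaacgacgagTAACAgcagcagcag (chr4:8866643-8866667, plus strand)
Arid1b: tgggcagttaTGACAtccgtgaagg (chr17:5343075-5343099, plus strand)
Fgfr1: caaacggcgcTGACTaccaaccctg (chr8:25573909-25573933, plus strand)
Fosl2: tctagccctgTAACCctgtgctcct (chr5:32153177-32153201, plus strand)

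The arrangement seen in these 8 genes was common but not particular to stop-spanning peaks. The stop codon lay in a DRACH in 721 of the 4384 genes with a placed stop-spanning peak, 501 of them with TGA and 220 with TAA. That is 16.4% of these genes, against 15.6% of the 4165 placed genes whose peaks lay elsewhere only. No stop codon TAG can begin a DRACH, and TAG made up 22.2% and 23.7% of stop codons in these 2 sets.

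A peak held a median of 10 DRACH sequences, and in 35 of the 4384 genes it held none. In 2278 genes (52.0%) a DRACH in the peak had its A within 10 bases of the first base of the stop codon, and in 76.8% within 25 bases. Whether inside a peak or not, a DRACH lay within 25 bases of the stop codon in 77.6% of these genes and in 73.3% of the genes with peaks elsewhere only. The motif found most often nearest to the stop codon was TGACT (349 genes, 8.02%), followed by GGACT and TGACC (330 genes each, 7.59%).

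Within 200 bases on either side of the stop codon, DRACH occurred 22.9 times per kb in genes with a stop-spanning peak, 24.0 times where the peak was in all 4 lists, and 20.8 times in genes with peaks elsewhere only. GGACT, which is 1 form of DRACH, occurred 1.53, 1.70 and 1.21 times per kb. A control pattern with the central A and C of DRACH exchanged occurred 19.0, 19.4 and 18.1 times per kb. Motifs were read on the mRNA strand, and overlapping matches were counted. The sets thus differed more in DRACH and GGACT than in the control pattern. These are descriptions of the sequences, with no test.

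Inside the peaks, DRACH was about as dense on both sides of the stop codon. In the 4 libraries it occurred 23.5 to 24.5 times per kb on the CDS side and 23.6 to 23.8 times on the 3′ UTR side. The difference, 3′ UTR minus CDS, was -0.31 ± 0.51 per kb (mean ± SD, n = 4), positive in 1 of 4 libraries (two-sided exact sign-flip permutation test over libraries, p = 0.375). GGACT was denser on the 3′ UTR side in each library, with 1.59 to 1.82 against 1.28 to 1.35 per kb. The control pattern went the other way, with at most 18.9 against at least 19.7 per kb.

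Member positions were long and leaned towards the CDS. Their median length was 480 and 443 bases in the GM libraries against 449 and 359 bases in the 3d DM libraries. Positions wholly in the CDS had medians of 208 to 240 bases and those wholly in the 3′ UTR 179 to 181 bases. A longer peak reaches a boundary more easily, so length is not independent of the rule. The CDS side had a median of 173 to 227 bases and the 3′ UTR side 135 to 170 bases, and the CDS side was the longer one in 55.4% to 59.9% of positions.

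**Figure D1:**
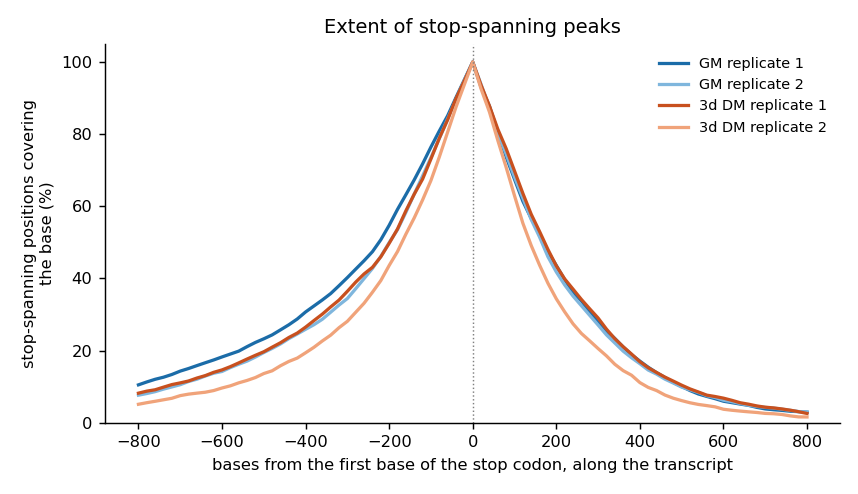
Share of stop-spanning positions (%, y axis) that cover each base by its distance from the first base of the stop codon along the spliced transcript (x axis, bases), 1 line for each library. Coverage 200 bases upstream was 54.7% and 49.9% in GM against 49.7% and 43.6% in 3d DM, and 200 bases downstream it was 43.6%, 41.8%, 43.5% and 34.4%, with 3d DM replicate 2 the narrowest.

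The number of distinct stop-spanning positions was higher in both GM libraries than in either 3d DM library. GM had 6455 and 6470 distinct member positions in its replicates, against 5828 and 4630 in those of 3d DM. Distinct positions can overlap each other. After merging overlapping positions, 3366 and 3341 merged peaks in GM held a member, against 3038 and 2433 in 3d DM. The groups did not overlap, and 3d DM replicate 2, the list with the fewest lines of all, was the lowest. The GM mean was 6462.5 ± 10.6 and that of 3d DM 5229 ± 847.1 (SD, n = 2 each; two-sided exact permutation test, p = 0.333, the smallest that 2 against 2 allows). Without 3d DM replicate 2 the difference of 1233.5 positions became 634.5, and the difference of 616.5 genes with such a peak became 327.5.

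As a share of all distinct positions in a list, stop-spanning ones made up 21.2% and 25.1% in GM against 19.2% and 20.1% in 3d DM. The means were 23.1% ± 2.71 and 19.6% ± 0.653 (SD, n = 2 each; exact permutation test, p = 0.333). The difference of 3.51 percentage points was 1.59 without GM replicate 2 and 5.42 without GM replicate 1. Genes with a stop-spanning peak numbered 3339 and 3322 in GM against 3003 and 2425 in 3d DM, which was 38.5% to 46.4% of the genes with any peak in a library.

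The fold of a stop-spanning peak over its input did not separate the states. Its median was 4.86 and 4.26 in GM against 4.29 and 4.26 in 3d DM. Only GM replicate 1 stood apart, and the other 3 libraries were within 0.03 of each other. The means were 4.56 ± 0.424 and 4.275 ± 0.0212 (SD, n = 2 each; exact permutation test, p = 1.0), and without GM replicate 1 the difference of 0.285 turned to -0.015. Depending on the library, the lower quartile was 2.93 to 3.30 and the upper quartile 6.12 to 7.42, and the highest fold in a library was between 48.5 and 116.

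Stop-spanning peaks had higher folds than peaks wholly in the CDS or wholly in the 3′ UTR in each library. The median fold of CDS-only positions was 4.32 and 4.04 in GM against 3.57 and 4.15 in 3d DM, and that of 3′ UTR-only positions was 3.94, 3.43, 3.60 and 3.81 in the same order. On the log2 scale, the stop-spanning median exceeded that of CDS-only positions by 0.14 ± 0.10 and that of 3′ UTR-only positions by 0.26 ± 0.07 (mean ± SD over 4 libraries, positive in 4 of 4 each; two-sided exact sign-flip permutation test, with the smallest p that 4 libraries allow). Within genes that carried both kinds of peak, the median difference was 0.17 against CDS-only and 0.09 against 3′ UTR-only peaks (positive in 4 of 4 libraries each). Among positions of 150 to 300 bases, an alternative chosen after seeing the data, the direction turned: the differences were -0.106 and -0.0452 (negative in 4 of 4 libraries against CDS-only positions, exact sign-flip permutation test against 3′ UTR-only positions, p = 0.375). The part of length in the higher fold was not tested further.

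**Figure D2:**
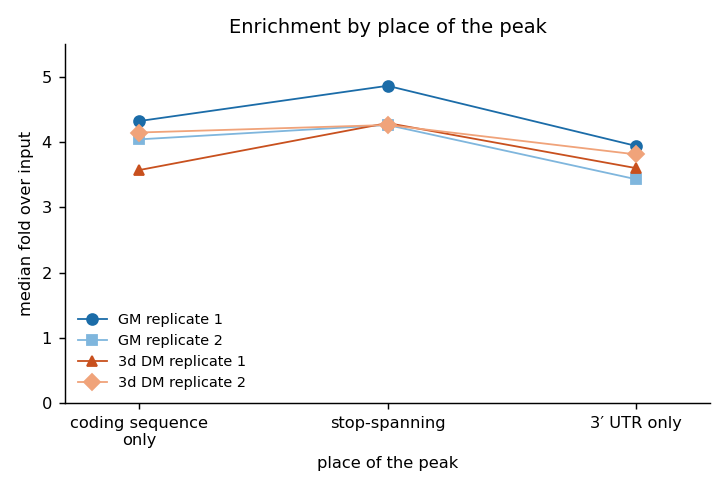
Median fold of immunoprecipitated over input RNA (y axis, from 0) for positions wholly in the CDS, stop-spanning positions and positions wholly in the 3′ UTR (x axis), 1 point for each library joined by a line. The stop-spanning point is the highest of the 3 in each library, at 4.86, 4.26, 4.29 and 4.26, and GM replicate 1 lies above the other libraries.

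Stop-spanning peaks were also called with smaller p-values. At most 1e-05 was reached by 77.6% to 84.3% of them, by 40.5% to 52.5% of CDS-only and by 40.8% to 48.5% of 3′ UTR-only positions. Stop-spanning positions were also the longer ones, as given above, and the part of length in these shares was not tested. The largest p of a member in a library was between 0.00708 and 0.0107, so the lists hold none near the authors' threshold of 0.05.

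The place of the last exon junction went with both the presence and the strength of a stop-spanning peak. Among genes with any peak in a library and 400 or more bases of last exon before the stop codon, 54.7% and 54.7% in GM against 53.1% and 43.4% in 3d DM had a stop-spanning one. With 50 to 100 bases the share was 36.4% and 37.9% in GM against 31.3% and 34.3% in 3d DM. Genes of a single exon had shares of 54.5%, 61.4%, 53.2% and 50.4%. The share was higher with the long distance in each of the 4 libraries. Below 50 bases it was 35.2% to 38.4%, so the order did not hold among the shortest distances.

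The fold followed the same order. With 400 or more bases, the median fold of the stop-spanning peak was 7.53 and 6.82 in GM against 6.14 and 6.38 in 3d DM. With 50 to 100 bases it was 3.77, 3.32, 3.40 and 3.39, and in single-exon genes 8.09, 6.67, 6.61 and 6.51. Split at 200 bases, the log2 medians differed by 0.63 and 0.71 in GM and by 0.55 and 0.57 in 3d DM. The peaks of the far set were also longer (533.5 against 451 bases in GM replicate 1 and 361 against 330 in 3d DM replicate 2), and the RNA values of its genes were lower (355.3 against 661.9 and 454.2 against 819.9 in the same libraries). The part of length and abundance in this was not tested. Over all placed genes, the median distance from the last junction to the stop codon was 176 bases with and 136 bases without a stop-spanning peak.

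**Figure D3:**
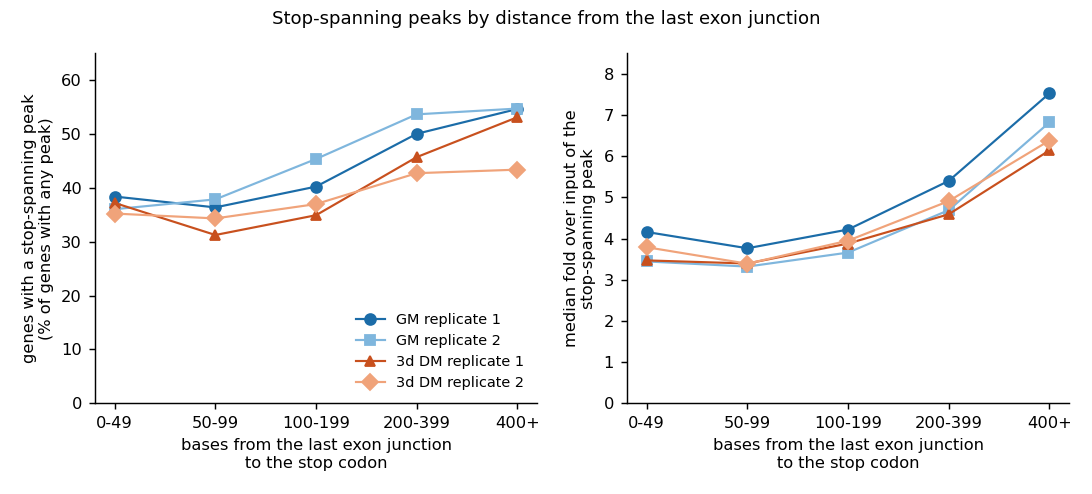
Genes grouped by the bases between the last exon junction and the stop codon (x axis), with the share of genes with any peak that have a stop-spanning one (%, left, from 0) and the median fold over input of that peak (right, from 0), 1 line for each library. Shares lie between 31.3% and 37.9% at 50 to 100 bases and between 43.4% and 54.7% at 400 bases or more, and folds between 3.32 and 3.77 and between 6.14 and 7.53.

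Other features went with smaller differences in fold. A 3′ UTR of at least 1000 bases went with a higher median fold in each library, 5.59 and 4.93 in GM against 4.81 and 4.94 in 3d DM, against 4.48, 3.96, 4.13 and 4.16 for shorter ones. At least 5 DRACH within 100 bases of the stop codon went with log2 differences of 0.13 to 0.16. A stop codon in a DRACH went with 0.04 to 0.09, and a GGACT within 100 bases with 0.01 to 0.13. The differences were positive in 4 of 4 libraries for these features.

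Detection moved with abundance. Among the genes tested in the RNA-seq, the quintile with the lowest RNA values in a library had a stop-spanning peak in 4.08% to 8.94% of genes and the highest quintile in 39.2% to 43.6%. Peaks of any kind rose likewise, from 16.7% to 34.7% of genes in the lowest quintile to 76.3% to 82.6% in the highest. The RNA values are not divided by transcript length, so they rank genes by input signal and not by number of molecules. Across the 1522 tested genes with the peak in all 4 lists, the mean log2 fold had a Pearson r of -0.42 and a Spearman rho of -0.40 with the log2 RNA value, a description in which both measures come from the same input libraries.

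At the level of genes, 1544 of the 4716 had a stop-spanning peak in all 4 lists, 897 in 3, 947 in 2 and 1328 in 1. The replicates of GM shared 2520 genes, which was 75.5% of the genes in replicate 1 and 75.9% of those in replicate 2. Those of 3d DM shared 1894, which was 63.1% of replicate 1 and 78.1% of replicate 2. Between GM replicate 1 and 3d DM replicate 1 the shared 2409 genes made up 72.1% and 80.2%.

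The more lists held the peak, the higher was its fold. The median of the geometric mean fold was 3.85 for genes in 1 list, 4.0 in 2, 4.59 in 3 and 5.02 in all 4. Of the genes with the peak in all 4 lists, 40.4% to 44.3% also had a CDS-only peak in a given library, 26.3% to 31.7% a 3′ UTR-only peak and 7.77% to 11.3% a peak that touched the 5′ UTR. In 37.6% to 42.0% the stop-spanning peak was the only kind.

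Without a limit on RNA value, the highest geometric mean fold of a gene with the peak in all 4 lists was 54.3. Among those with a mean RNA value of at least 100, the 8 genes with the highest mean folds were of varied function. These genes were ranked by fold, so their values are a description. Mrpl19, a protein of the large mitochondrial ribosomal subunit, had folds of 17.2 and 43.8 in GM against 23.3 and 20 in 3d DM. Dnase2a, a lysosomal DNase, had 16.6 and 48.5 in GM against 6.42 and 25.1 in 3d DM. In both genes the ranges of the states overlapped, and GM replicate 2 was the highest.

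Smcr8, a partner of C9ORF72 in autophagy, had folds of 35.9 and 33.6 in GM against 7.64 and 13.4 in 3d DM. Pde4b, a phosphodiesterase that degrades cAMP, had 21.6 and 22.1 in GM against 11.9 and 15.0 in 3d DM. Crtc3, a coactivator of CREB, had 21.9 and 21.1 in GM against 6.14 and 18.4 in 3d DM. These 3 genes had the higher folds in both GM libraries. The share of all genes in which this held was not counted, so it only describes their values. Among all 1544 stop-spanning regions with a fold in each list, 61.0% had a change above 0, GM minus 3d DM. Among the RNA values, that of Pde4b alone of the 8 passed the test: it was 252.5 and 147.5 in GM against 43.9 and 69.0 in 3d DM (log2 fold change 1.79 ± 0.51 SE, limma adjusted p = 0.0043), a call that was lost without GM replicate 1 or without either 3d DM replicate.

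Thap7, a zinc finger protein with a THAP domain, had folds of 10.3 and 22.7 in GM against 16.9 and 28.4 in 3d DM. Zfp57, a KRAB zinc finger protein that keeps imprinted genes methylated, had 13.6 and 30.5 in GM against 15.9 and 16.7 in 3d DM. Pura, which binds single-stranded nucleic acids, had 32.4 and 7.53 in GM against 30.7 and 10.2 in 3d DM. In Pura the libraries numbered 1 were high in both states and those numbered 2 low.

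No change of fold between GM and 3d DM passed the test. Fold was compared at 5143 gene regions (a gene and the place of its peak) with a value in all 4 lists, by limma on log2 fold with Benjamini-Hochberg adjustment over all of them. It called 0 of 5143 (0% of all regions) at an adjusted p of 0.05 and thus 0 of the 1544 stop-spanning ones. At an unadjusted p under 0.05 there were 203 of all regions (3.95%), and 37 of the stop-spanning ones, 22 with the higher fold in GM and 15 with it in 3d DM. The median log2 change of stop-spanning peaks was 0.11, GM minus 3d DM, with 5% of them below -0.63 and 5% above 0.83, while all regions had a median of 0.09. The median SE of a stop-spanning region was 0.46. A change of 2-fold, 1 on this scale, was thus little over 2 such errors. Change of fold and change of RNA value had a Pearson r of -0.20 and a Spearman rho of -0.18. This was over the 1522 RNA-tested genes with the peak in all 4 lists, and both measures use the same input libraries.

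The 4 stop-spanning peaks with the smallest p and the higher fold in GM were on Itga3, Tenm3, Rpl10a and Fam193a. These genes, and the 4 given below for 3d DM, were ranked by this p. Separation of the states in them thus describes the ranking. Itga3, an integrin subunit that binds laminin, had folds of 7.59 and 8.09 in GM against 1.65 and 2.40 in 3d DM. Its peak, 1402 bases of exon on chr11:95044474-95046560, ran through the whole 3′ UTR of 1321 bases. The log2 change of fold was 1.98 ± 0.40 (SE; limma, adjusted p = 0.344). Tenm3, a large cell-surface adhesion protein, had 14.9 and 35.2 in GM against 5.71 and 4.64 in 3d DM (log2 change 2.15 ± 0.64, limma adjusted p = 0.828). In both genes the states did not overlap.

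Rpl10a, a ribosomal protein, had folds of 2.22 and 4.38 in GM against 1.36 and 1.52 in 3d DM. Fam193a had 5.54 and 10.3 in GM against 2.84 and 2.89 in 3d DM, and the GENCODE transcript of its peak ends at the stop codon, so that no base of annotated 3′ UTR was found in it. Neither gene passed the test (limma, adjusted p = 0.918 for each). Ribosomal protein mRNAs have near-identical processed pseudogenes, and how reads of such copies were counted is not given in the sources used here, so the values of Rpl10a are uncertain.

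The 4 with the higher fold in 3d DM were on Mrpl40, Eva1c, Pigf and Xylt2. Mrpl40, of the mitochondrial ribosome, had folds of 4.31 and 3.37 in GM against 28.6 and 41.8 in 3d DM. Its log2 change of -3.18 ± 0.61 (SE; limma, adjusted p = 0.344) was the largest of the 8, but it turned to 0.0072 when the highest fold on the gene region was taken in place of the fold with the lowest p. Eva1c had 2.83 and 3.74 in GM against 10.1 and 17.5 in 3d DM (log2 change -2.03 ± 0.51, limma adjusted p = 0.690), while its RNA value was higher in GM, with 87.0 and 152.5 against 16.3 and 45.8 (log2 fold change 2.03, limma adjusted p = 0.0029), a call lost without GM replicate 2 or either 3d DM replicate.

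Pigf, of the pathway that builds GPI anchors, had folds of 2.78 and 2.87 in GM against 11.1 and 6.03 in 3d DM. Xylt2, a xylosyltransferase that starts the sugar chains of proteoglycans, had 7.0 and 4.38 in GM against 21.2 and 15.0 in 3d DM. Both kept the states apart, and neither passed the test (limma, adjusted p = 0.858 and 0.997).

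**Figure D4:**
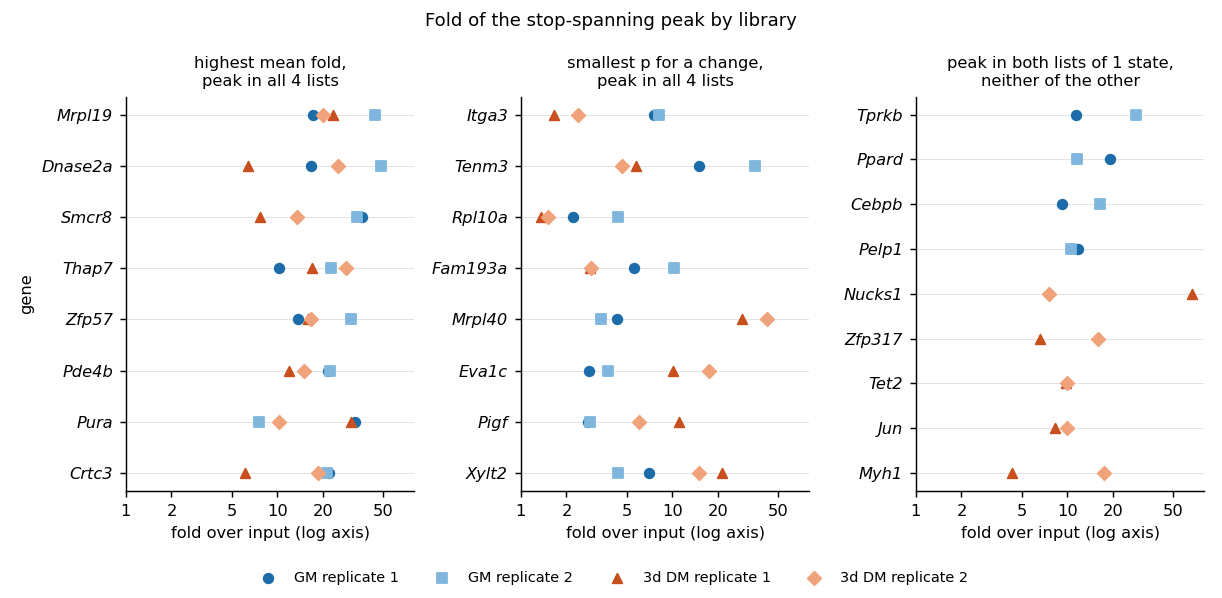
Fold over input of the stop-spanning peak (x axis, log scale) in each library for genes with the highest mean fold (left), genes with the smallest p for a change (middle) and genes with the peak in both lists of 1 state only (right), 1 row for each gene. The left panel is limited to genes with a mean RNA value of at least 100, and the right panel to at least 100 in each library. The genes of the middle panel were chosen by the p of this comparison, so the separation of their GM and 3d DM points describes the choice. An example is Mrpl40 with 4.31 and 3.37 against 28.6 and 41.8. In the left panel, chosen by mean fold, the states overlap for Mrpl19, Dnase2a, Thap7, Zfp57 and Pura.

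A stop-spanning peak was in both GM lists and neither 3d DM list for 309 genes, and in both 3d DM lists and neither GM list for 120. Most of these genes still had a peak in the other state. Of the 309, 84.5% had some peak in a 3d DM list and 74.4% had one that overlapped the stop-spanning peak, and 48 had none. Of the 120, 65.8% had some peak in a GM list and 55.0% an overlapping one, and 41 had none. An overlap here is of any base of the peak, which need not lie near the stop codon.

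An overlapping peak in the other state was called on 8 of the 9 genes described here, which are those with the highest folds in these sets and RNA values of at least 100 in each library. Tprkb, of the KEOPS complex that modifies tRNA, had folds of 11.4 and 28.2 in GM. In 3d DM its peak was called in the 3′ UTR only, with 21.7 and 23.4. Cebpb, a bZIP transcription factor, had 9.26 and 16.5 in GM and a peak in the 3′ UTR only with 8.64 and 8.58 in 3d DM. Ppard, a nuclear receptor for fatty acids, had 19.1 and 11.5 in GM, and its peak in the 3′ UTR of 3d DM had 3.70 and 5.01.

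Pelp1, a coregulator of nuclear receptors, had folds of 11.8 and 10.5 in GM and a CDS-only peak with 9.48 and 9.06 in 3d DM. Its GM peak reached 47 bases into the 3′ UTR, all that its transcript has. The RNA values of these 4 genes did not pass the test (limma, adjusted p between 0.219 and 0.701).

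In the set of 3d DM, Jun, a subunit of AP-1, had folds of 8.32 and 9.89. In both GM lists its peak ran from the 5′ UTR through the CDS into the 3′ UTR, with folds of 10.5 and 10.2, and so had another label. Jun is a single-exon gene with a peak of 865 bases across the stop codon in 3d DM. Nucks1, a nuclear phosphoprotein, had 66.1 and 7.52 in 3d DM and a peak with a 5′ UTR label of 6.6 and 4.54 in GM. Zfp317, a zinc finger protein, had 6.6 and 15.9 in 3d DM and an overlapping 3′ UTR peak of 19.2 and 5.09 in GM. In these 3 genes the peaks of the states overlapped. The RNA value of Nucks1 was higher in GM (log2 fold change 1.12, limma adjusted p = 0.045), a call lost without any 1 of the 4 libraries.

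Tet2, an enzyme that oxidizes 5-methylcytosine, was the exception. It had folds of 9.79 and 10.0 across the stop codon in 3d DM, while the GM lists held only peaks elsewhere in the CDS. Its RNA values were 204.1 and 122.4 in GM against 234.0 and 254.2 in 3d DM (limma, adjusted p = 0.452). Myh1, a fast myosin heavy chain, had 4.28 and 17.5 in 3d DM and an overlapping CDS-only peak of 7.65 and 10.6 in GM. Its stop-spanning peak covered 3539 bases of exon, most of the CDS, with 26 bases in the 3′ UTR. Its RNA values were 160.7 and 186.6 in GM against 13930 and 8833 in 3d DM (log2 fold change -5.99 ± 0.42 SE, limma adjusted p = 1.25e-42). Myosin heavy chain genes share long stretches of sequence, so reads may have been split among them.

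RNA-seq of the input libraries was compared for these gene sets, with log2 changes on the scale of the value + 1, GM minus 3d DM. In bulk samples, fewer cells of a type and less RNA per cell cannot be told apart. Limma called 1936 of 11406 tested genes (17%), 1136 with more RNA in GM (9.96%) and 800 with more in 3d DM (7.01%). With median-of-ratios factors it called 2646 (23.2%), 1281 with more RNA in GM and 1365 with more in 3d DM, so that the prevailing direction turned. Of the 1522 tested genes with the stop-spanning peak in all 4 lists it called 166 (10.9%), 96 with more RNA in GM and 70 with more in 3d DM. Their median log2 change was 0.23 beside 0.22 for all genes tested. The called share was below that of all genes, in a set whose median RNA value was 604.8 beside 292.2.

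This count depended on single libraries and on scaling. It was 60 without GM replicate 1, 35 without GM replicate 2, 11 without 3d DM replicate 1 and 40 without 3d DM replicate 2. Rescaling by median-of-ratios factors, which moved the median change of all genes from 0.22 to 0, gave 289 calls, 125 with more RNA in GM and 164 with more in 3d DM. Here too the prevailing direction turned with the scaling.

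Among genes with the peak in both lists of 1 state, more were called with higher RNA values in that state than in the other. Of the 299 tested genes of the GM set, 92 had more RNA in GM and 2 had more in 3d DM, with a median log2 change of 0.77. Of the 119 tested genes of the 3d DM set, 4 had more RNA in GM and 64 had more in 3d DM, with a median of -1.43. Peaks were called against the same inputs, and detection moved with the RNA value as given above, so these counts are not independent of how the sets were formed. Without 3d DM replicate 1 they were 8 and 0, and 2 and 19. Without another single library, 54 to 64 of the GM set were called higher in GM and 35 to 57 of the 3d DM set higher in 3d DM.

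**Figure D5:**
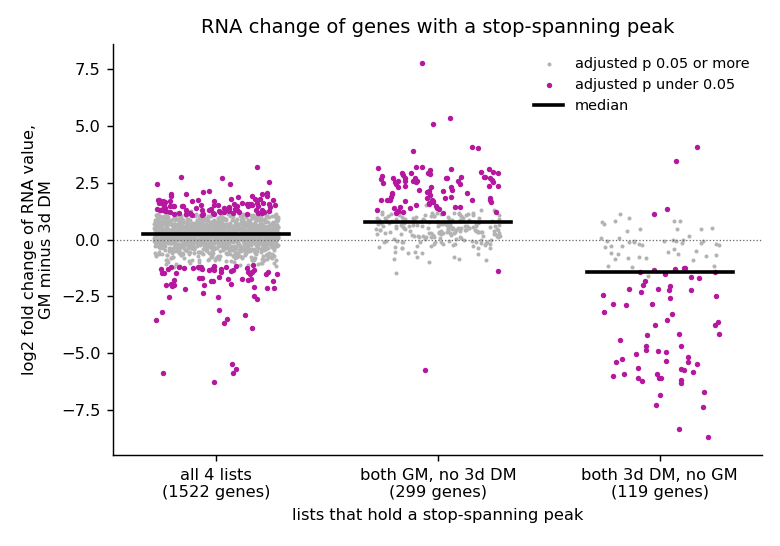
Log2 fold change of the RNA value, GM minus 3d DM (y axis), for genes with a stop-spanning peak in all 4 lists (1522), in both GM lists only (299) and in both 3d DM lists only (119), 1 point for each tested gene with the median as a bar and genes with a limma adjusted p under 0.05 coloured. The medians are 0.23, 0.77 and -1.43.

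The myotube markers followed the labelled cell states and the myoblast markers did not. The summed values of 5 myotube markers (Myog, Myh3, Mymk, Ckm and Tnnt3) were 724 to 3480 in GM and 60733 to 86821 in 3d DM, while those of 5 myoblast markers were 26786 and 14064 in GM against 36010 and 47242 in 3d DM. Of these 5, Myf5 alone was higher in GM, Des (log2 fold change -1.36) and Itga7 (-1.35) were higher in 3d DM, and Myod1 (0.10) and Cdh15 (-0.09) did not pass the test (limma, adjusted p = 0.921 and 0.932). Of the markers of other cell types, the 3 of adipocytes were at 0 in each library, and the sums were at most 9.61 for osteoblasts, 1.5 for endothelium and 73.0 for blood cells. The 4 lists differed in size, with 23785 to 31221 lines. Neither the lists nor the RNA table give read numbers, so the sequencing depth behind these values is unknown and they carry no counting interval.

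Gene lists for myoblast biology were then read by role. Over all genes with a peak, 4716 of 9153 (51.5%) had a stop-spanning one in at least 1 list and 1544 (16.9%) in all 4, and the median of the mean fold was 4.45. The list counts stand beside these shares without a test. Overlap of the states in a gene likewise only describes its values. Full separation of 2 against 2 libraries has a p of 0.333 in a two-sided exact permutation test, and its share over all genes was not counted.

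Among myogenic regulators, 13 of 23 genes with a peak (56.5%) had a stop-spanning one, but only 2, of which 1 was Mef2d, in all 4 lists (8.70%). Mef2d, a MADS-box factor that cooperates with MyoD, had folds of 3.8 and 3.43 in GM against 2.55 and 3.20 in 3d DM. The fold was somewhat lower in both 3d DM libraries, with an unadjusted p of 0.370 in limma. Myf5, which specifies myoblasts, had the peak in GM only, at 12.2 and 4.26, as did Tcf3, the E protein partner of MyoD, at 4.02 and 3.86.

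Mef2c and Tead4 had it in 3d DM only, at 2.91 and 1.86 and at 4.29 and 7.45. Hes1, a repressor downstream of Notch, had it in GM only, at 1.73 and 6.65, and its RNA value did not pass the test (log2 fold change 0.31, limma adjusted p = 0.749). In the other 4 genes the RNA value was higher in the state with the peak, in GM for Myf5 (log2 fold change 2.14) and Tcf3 (1.25), and in 3d DM for Mef2c (-5.02) and Tead4 (-2.28). Those of Myf5, Tcf3 and Tead4 lost the call without at least 1 library. The myogenic factors MyoD (Myod1) and myogenin (Myog) had peaks but none that met the rule for a stop-spanning label. Those of Myod1 had a label that named the 5′ UTR, as in Jun, and whether they reached the stop codon was not examined.

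Of genes of fusion and the sarcomere, 21 of 35 with a peak (60.0%) had a stop-spanning one and 8 had it in all 4 lists. RNA of 20 of the 21 was higher in 3d DM, with a median log2 change over the 21 of -5.75, and that of Tpm1, a tropomyosin, missed the threshold (-0.69, limma adjusted p = 0.273). In the whole list, with or without such a peak, it was higher in 3d DM for 35 of 36 tested genes, beside 7.01% of all tested genes. Without 3d DM replicate 1 the count of 20 was 9, and without 3d DM replicate 2 it was 14. The median was -6.74 without GM replicate 1 and -4.64 without GM replicate 2, in which RNA values such as those of Ttn (4063 against 621.2) and Tnni2 (361.4 against 39.2) were several times lower than in GM replicate 1. The 21 peaks covered a median of 52.5% of the transcript, against 16.5% over all genes, so for many of these mRNAs the stop codon lay within a peak over much of the message.

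In 7 of the 8 genes with the peak in all 4 lists the fold was highest in GM replicate 1. That library also had the higher folds over all 1544 genes with the peak in all 4 lists. Its median log2 difference was 0.18 from GM replicate 2, 0.27 from 3d DM replicate 1 and 0.11 from 3d DM replicate 2. Troponin T genes had folds of 9.62, 6.08, 4.15 and 4.28 (Tnnt1), 10.9, 5.75, 4.90 and 5.59 (Tnnt3) and 7.13, 5.79, 4.77 and 7.24 (Tnnt2) in the 2 GM and then the 2 3d DM libraries. The GENCODE transcripts of the Tnnt1 and Tnnt3 peaks end at the stop codon, so no base of annotated 3′ UTR was found in them. Embryonic myosin heavy chain (Myh3) had 21.9, 6.87, 4.81 and 4.72, and titin (Ttn) 4.16, 3.62, 3.52 and 3.97. In Tnnt1, Tnnt3 and Myh3 both GM folds exceeded both 3d DM folds, while RNA was higher in 3d DM by over 5 on the log2 scale. A weak inverse relation of the 2 changes was also seen over all genes with the peak in all 4 lists, as given above. Tnni2, a fast troponin I whose stop codon lies in a DRACH, had 5.69, 2.55, 1.88 and 2.51. Besides Myh1, Myh7, Myom1, Cap2 and Cacna1s had the peak in both 3d DM lists only, at folds between 1.43 and 5.23, and all 4 had RNA values higher in 3d DM by over 5 on the log2 scale. Tnnc2, a fast troponin C, had the peak in both GM lists only, at 6.39 and 3.55, although its RNA was higher in 3d DM (-5.75). It also had a peak with a label that named the 5′ UTR, as in Jun. Whether that peak reached the stop codon was not examined.

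In the cell cycle, 19 of 37 genes with a peak (51.4%) had a stop-spanning one, and only Cdk6, Rbl2 and E2f2 had it in all 4 lists (8.11%). Cdk1, Mcm3, Mcm6, Top2a, Aurka and Bub1, which act in replication and mitosis, had the peak in both GM lists only. Aurka, a mitotic kinase, had 3.66 and 6.34 in GM, and Mcm3, of the replicative helicase, 5.15 and 6.30. In the whole list, with or without such a peak, RNA of 29 of 41 tested genes was higher in GM and of 4 higher in 3d DM. The shares over all tested genes were 9.96% and 7.01%. RNA of 14 of the 19 was higher in GM and of none higher in 3d DM, and without 3d DM replicate 1 the count of 14 was 6. Cdk6, a G1 kinase, had higher folds in 3d DM (8.92 and 10.0) than in GM (5.80 and 7.40), while its RNA was higher in GM (log2 fold change 1.85, limma adjusted p = 0.00135), a call lost without GM replicate 2 or either 3d DM replicate. Ccnb1, cyclin B1, had the peak only in GM replicate 2, at 2.06.

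The list of the m6A machinery had 22 genes. Mettl3, Mettl14, Ythdc2, Igf2bp1 and Igf2bp3 had no peak in any of the 4 lists. Among those with a peak, the stop-spanning kind was frequent. Of 17 with a peak, 15 (88.2%) had a stop-spanning one and 8 (47.1%) had it in all 4 lists, with a median of the mean fold of 5.90. Among writer subunits, Rbm15b, which recruits the complex to RNA, had folds of 10.8, 10.2, 10.0 and 9.74 in the GM and then the 3d DM libraries, an even set. Wtap had 7.20, 5.32 and 5.92 and Cbll1 8.86, 7.53 and 7.73, with no peak in 3d DM replicate 2. The eraser Alkbh5 had 3.94, 3.05 and 2.25, again without a peak in that library, and Fto had peaks in the CDS and 3′ UTR only.

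Among readers, Ythdf2, which leads marked mRNA to decay, had folds of 6.12 and 9.24 in GM against 5.29 and 4.04 in 3d DM, and the nuclear reader Ythdc1 6.74 and 4.94, and 8.30 and 6.11. Ythdf3, with its stop codon in a DRACH, had 13.9 and 3.41 in GM against 5.82 and 3.44 in 3d DM. The states overlapped in Ythdc1 and Ythdf3 and not in Ythdf2. Ythdf1 had peaks in the CDS only. No RNA value of the 15 passed the test (limma, lowest adjusted p of 0.0982 for Hnrnpa2b1). At an unadjusted p under 0.05 there were 4, each higher in GM, and with median-of-ratios factors 1 was called.

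All 50 chromatin regulators had a peak, and 29 (58.0%) had a stop-spanning one, 17 of them (34.0%) in all 4 lists. The highest folds among these 17 were on Arid1b, a subunit of the BAF remodelling complex (12.2 and 23.5 in GM, 8.10 and 16.1 in 3d DM), Chd7, a chromodomain remodeller (14.1 and 11.0, 10.9 and 12.5), and the acetyltransferase Crebbp (15.6 and 10.8, 7.47 and 12.3). The states overlapped in all 3. Arid1b and Chd7 have the stop codon in a DRACH, as do Arid1a, Ash1l, Kdm3a and Smarca2. The long mRNAs of this list, with a median of 6919 bases, were covered by the peak over a median of 7.15% of their length. The RNA of 1 of the 29, the H3K4 demethylase Kdm5b, was higher in 3d DM (log2 fold change -1.52), a call lost without GM replicate 2 or either 3d DM replicate.

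Among signalling factors and receptors, 29 of 41 with a peak (70.7%) had a stop-spanning one and 10 had it in all 4 lists. Igf1r, the IGF receptor, was even across the libraries at 7.06 and 7.30 in GM against 7.12 and 6.82 in 3d DM, and Fgfr1 had 7.68 and 5.39, and 4.89 and 5.61, with the states overlapping. Acvr2a, a receptor of activin and myostatin, had 14.0 and 13.0 in GM against 11.5 and 7.52 in 3d DM. Irs1, the adaptor below the insulin and IGF receptors, had 10.5 and 7.54, and 9.58 and 3.28. Of the ligands, Tgfb1 had 3.72 and 20.9 in GM against 5.97 and 12.2 in 3d DM, with the states overlapping.

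Notch2, Ski and Fzd7 had the peak in both GM lists only, at folds between 5.01 and 11.6, and Fst, follistatin, in both 3d DM lists only, at 2.69 and 2.02. None of the 29 had RNA higher in GM, beside 1 of all 44 tested genes of the list. RNA of 5 of the 29 was higher in 3d DM, beside 9 of the 44. These were Spry1 (log2 fold change -2.91), Tgfb3 (-2.49), Fst (-5.16), Pdgfrb (-1.21) and Tgfbr2 (-1.14), and only that of Fst stayed called without any single library. With median-of-ratios factors 11 were called.

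Growth-arrest and immediate-early factors, many of them single-exon genes, had the peak in 26 of 36 (72.2%) and in all 4 lists in 13 (36.1%). The median of the mean fold, 6.30, was the highest of the 9 lists. Myc had folds of 18.7 and 17.2 in GM against 8.47 and 5.01 in 3d DM, so both GM values were above both 3d DM values. Jund, of AP-1, had 9.17 and 13.3 in GM against 7.03 and 12.4 in 3d DM, and Fosl2, whose stop codon lies in a DRACH, 13.5 and 8.54, and 9.49 and 6.40. In both of these the states overlapped.

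Ier5 had 9.37 and 9.39 in GM against 8.37 and 6.37 in 3d DM, and Klf10 had 5.03 and 5.63, and 4.48 and 4.95. Neither change of fold passed the test (limma, adjusted p = 0.997 for each). Klf13 had 15.2 and 41.5 in GM and 10.4 in 3d DM replicate 1, with no peak in 3d DM replicate 2. Gas1, expressed in arrested cells, had 6.81 and 18.8 in GM against 4.19 and 6.05 in 3d DM. The GENCODE transcript of its peak ends at the stop codon, so no base of annotated 3′ UTR was found in it. RNA of Myc (log2 fold change 1.43), Fosl1 (4.02) and Dusp4 (2.19) was higher in GM and that of Klf5 (-1.98) and Gadd45a (-2.48) higher in 3d DM, calls that were all lost without 3d DM replicate 1.

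Short mRNAs of housekeeping complexes had the peak with low folds. Of cytosolic ribosomal proteins, 41 of 46 with a peak (89.1%) had a stop-spanning one and 23 (50.0%) had it in all 4 lists, with a median of the mean fold of 2.16. Their transcripts had a median length of 777.5 bases, of which the peak covered 32.1%. 3d DM replicate 2 had the peak on 39 of them, while the other libraries had it on 24 to 27. Rps19 had folds of 4.19 and 3.79 in GM against 3.47 and 5.20 in 3d DM, and Rpl5 2.93 and 2.41, and 3.19 and 2.84. The values of this family are uncertain for the copies named above.

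Of nuclear genes of oxidative phosphorylation, 19 of 32 with a peak (59.4%) had a stop-spanning one and 6 (18.8%) in all 4 lists, near the shares over all genes, with a median of the mean fold of 2.22. Ndufv2, a subunit of complex I with its stop codon in a DRACH, had 2.39 and 1.97 in GM against 2.33 and 2.21 in 3d DM. Atp5f1, of the ATP synthase, had 2.25 and 1.85, and 2.12 and 2.58. Here 3d DM replicate 2 and GM replicate 2 had the peak on 17 and 15 genes, and GM replicate 1 and 3d DM replicate 1 on 8 and 7. No RNA value of the 41 and 19 members of these lists passed the test in limma. At an unadjusted p under 0.05 there were 7 ribosomal genes, each higher in GM, and 0 of oxidative phosphorylation, and with median-of-ratios factors 1 ribosomal gene was called.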

How the data were processed

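Peak lists from MeRIP-seq and a RNA-seq table were used, and the labels gave each sample its group. Reads had been trimmed of adaptors and aligned to mm10 (HISAT2, version 2.1.0), and exomePeak had compared every immunoprecipitated library with the matching input with a threshold of 0.05 on P. Each line of a deposited list holds a p-value and a fold, which is a ratio of precipitated to input RNA, for a peak on 1 protein-coding transcript. The RNA-seq table deposited by the authors holds a normalized signal for the input libraries (trimmed mean of M values in its name, edgeR in the submitters' processing notes). Its columns have nearly equal totals and its low values do not step, so reads could not be recovered and depth is unknown. Whether replicate values were adjusted together is not given in the sources used here.

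Distinct positions were set by chromosome, start, end, strand and blocks, and genes by symbol. The fold of a position or gene region was that of its line with the lowest p. Stop codons, lengths and sequences came from GENCODE release M21, by transcript identifier. Libraries were compared by two-sided exact permutation tests. For RNA, limma (version 3.58.1, under R 4.3.3) was run with an intensity trend on log2(value + 1), and p-values were adjusted by Benjamini-Hochberg over 11406 genes that reached 2 cpm of the column total in 2 or more of the 4 libraries. The study's own filter of 3 was an alternative. Log2 fold was tested likewise over 5143 gene regions. In the RNA fit the SE followed the trend, so its p-values leave out how far the replicates of a single gene differ. Entrez identifiers gave symbols for 98.7% of tested genes. The fits were tested on simulated data. Python 3.11.15, numpy 2.4.6, pandas 2.3.3, scipy 1.17.1 and matplotlib 3.10.9 were used.

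The genes named are the 8 of highest mean fold among those with the peak in all 4 lists and a mean RNA value of at least 100, the 4 of smallest p for a change of fold in each direction, the 5 of highest mean fold in each state among genes with the peak in both lists of that state only and RNA values of at least 100, and members of 9 gene lists. Of these, 2 genes are not reported here. Members and lists were chosen with earlier results of these data known. Alternatives were a p-value limit of 1e-05, merged peaks, a fold of at least 4, other readings of the label, other filters, pseudocounts of 0.1 and 4, median-of-ratios factors, no trend, a replicate block, and each replicate left out. The authors' own comparisons of the states were not used here.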

Additional observations from a re-analysis of the deposited data

How the results depend on the processing

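With 2 libraries a state, no exact test could reach a p under 0.333, and leaving out a library left a state with 1 sample, which limma then took to vary like the rest. All comparisons of counts, shares and genes between GM and 3d DM, and of DRACH density, kept their direction under each alternative run. The difference in median fold between states, 0.285, was -0.015 without GM replicate 1 and 0.27 to 0.585 without another library. The log2 difference of stop-spanning from CDS-only and 3′ UTR-only positions was -0.106 and -0.0452 for positions of 150 to 300 bases, an alternative chosen after seeing the data, as was the one within genes. The 0 stop-spanning regions called for a change of fold became 1 with a p-value limit of 1e-05 and 1 with a replicate block, and the change of Mrpl40 became 0.0072 with the highest fold of the region. The 166 RNA-seq calls became 289 with median-of-ratios factors, 78 with a replicate block, 719 for genes with the peak in at least 1 list, and 11 to 60 with a replicate left out. The 719 calls came from a larger gene set, 15.7% of 4588 tested genes, and do not reflect a change of processing. The 166 were 10.9% of 1522 tested genes, beside 17% of all tested genes. Samples with the same replicate number deviated together (correlation 0.12 for fold and 0.29 for RNA), but the labels name no shared batch, so the block was not used in the main tests. Of 56 named genes with a RNA-seq call, 50 kept it under each alternative other than the block and the omission of a replicate. The block lost 8, and omitting 3d DM replicate 1 lost 38. The causes were not tested. The lists hold called peaks only, so a missing peak may be one that was not detectable at an unknown depth.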
